A study of Mus musculus with 12 samples.

Results

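The 10 genes described here encode Fc receptors and the adaptor and signalling proteins that myeloid cells use beside them: Fcgr1, Fcgr2b, Fcgr3, Fcgr4, Fcer1g, Tyrobp, Trem2, Vav1, Fyb and Laptm5. They were taken by gene name from the annotation of the array, which gave 13 probes for them among 55681 probes, and all 10 had a probe that passed the filter on dim probes, among 18021 gene names that did. Left ventricular RNA of 12 mice aged 6 months was hybridised, 1 mouse an array and 4 arrays a group. The mutants carried Floxed-Nkx2-5-ΔNeo alleles and Cx40-creERT2, a Cre recombinase that tamoxifen activates and that the Cx40 promoter drives in the embryonic trabecular myocardium. In TrbE10 mice, which the labels call Nkx2-5Δtrab, tamoxifen had been given to the pregnant females at E10.5 and E11.5, while the trabeculae form. In TrbE14 mice, called Nkx2-5Δcomp in the labels, it had been given at E13.5 and E14.5, while they compact. Controls are labelled as not injected, and the study's methods describe controls as littermates with floxed alleles and no Cre (Cx40+/+). Whether their mothers received tamoxifen is therefore not settled. An effect of the Cx40-creERT2 allele, and of tamoxifen if controls had none, cannot be told apart from that of the deletion. Pups of treated females were delivered by caesarean and fostered. Vav1, Fyb and Fcgr1 were chosen for being higher in TrbE10 than in control hearts. Their values are therefore given as a description with no p in any comparison, since all comparisons share arrays, and tests are reported for the other 7 genes.

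Macrophages carry receptors for the constant part of IgG. In the mouse Fcgr1, Fcgr3 and Fcgr4 encode activating receptors, which bind IgG outside the cell and need the shared gamma chain, encoded by Fcer1g, for their surface expression and signal, whereas Fcgr2b encodes the inhibitory receptor. Tyrobp encodes DAP12, an adaptor of the same kind that pairs with Trem2, a receptor for lipids and apoptotic cells. Both adaptors carry an immunoreceptor tyrosine-based activation motif (ITAM), which Src family kinases phosphorylate and to which the kinase Syk binds. Vav1, a guanine nucleotide exchange factor, and Fyb, a scaffold that links receptors to integrins and actin, act downstream. Laptm5 is a lysosomal membrane protein of haematopoietic cells. Resident macrophages are a minor cell population of the normal myocardium.

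In these bulk samples, more cells of a type and more RNA per cell cannot be told apart. The ventricular identity of the tissue was borne out by the cardiomyocyte markers Myh6, Myl2, Tnni3, Actc1, Ryr2 and Actn2, whose mean log2 signal lay between 16.17 and 16.35 on the 12 arrays. Nkx2-5, the deleted gene, had log2 signals of 11.88 to 12.23 in control, 11.21 to 11.67 in TrbE10 and 11.12 to 11.62 in TrbE14 hearts, so that neither mutant group overlapped the controls. At the 75th percentile, processed signals were between 194.6 and 249.5 on all arrays. Control and TrbE14 arrays lay on slide 1, in different columns, and TrbE10 arrays on slide 2, so that any effect of the slide cannot be told apart from that of the TrbE10 genotype. Signal of a Y-linked gene was present in 1 control, 2 TrbE10 and 3 TrbE14 hearts.

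All 10 genes had a higher mean in TrbE10 than in control hearts, from 0.03 for Fcgr2b to 1.58 for Trem2 on the log2 scale, with a median difference of 0.81. The median of the 7 tested genes alone was 0.76, beside -0.02 over all 18021 genes. In TrbE14 hearts 9 of the 10 were above control, from -0.18 for Fcgr2b to 1.28 for Trem2, with a median of 0.44, and of 0.43 over the 7 tested genes, beside -0.03 over all genes. The medians of 10 hold the 3 genes chosen for their TrbE10 values and are descriptions. Of the 7 genes tested, 3 rose in TrbE10 (Trem2, Fcer1g and Tyrobp; limma, adjusted p under 0.05), where 1.26% of all genes were called higher, and 1 rose in TrbE14 (Trem2), where 0.538% were. At an unadjusted p under 0.05 the counts were 6 and 5 of 7, beside 3007 and 2491 of all 18021 genes. The 4 mutant arrays all lay above the 4 control arrays for 8 of 10 genes in TrbE10, where 4.97% of all genes did so, and for 3 of 10 in TrbE14 (Fcer1g, Trem2 and Vav1), where 4.66% did. Of the 7 tested genes alone, 5 did so in TrbE10 and 2 in TrbE14. The TrbE10 count of 3 depended on single arrays: it was 1, with only Trem2 left, without control replicate 1, TrbE10 replicate 1 or TrbE10 replicate 3, and 5 without control replicate 3. Both mutant groups were compared with the same 4 controls. The mean of the macrophage markers, described further on, moved with these values and lay above control on every mutant array, and its part in them was not tested.

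**Figure D1:**
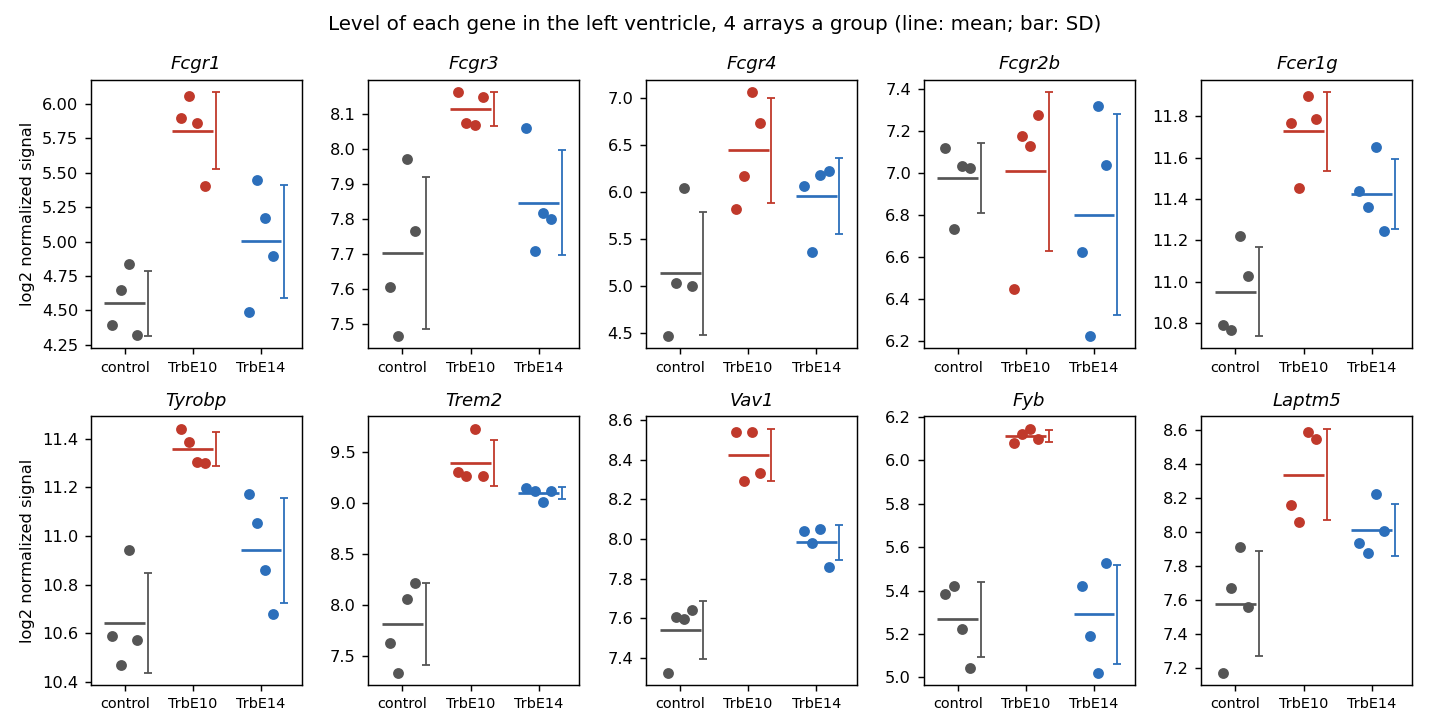
Log2 normalized signal (vertical axis) of the 10 genes on each of the 12 arrays, by group (horizontal axis); points are arrays, lines group means and bars the SD, and each panel has its own scale. All 4 TrbE10 points lie above all control points for 8 of the genes, the exceptions being Fcgr4 and Fcgr2b, and Fyb in TrbE14 lies within the range of 5.02 to 5.53 beside control values of 5.04 to 5.42.

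Among the activating IgG receptors, Fcgr1, the high affinity receptor, was not well above background on any control array. Its log2 signal in control replicates 1 to 4 was 4.40, 4.65, 4.84 and 4.33. In TrbE10 it was 5.90, 6.06, 5.86 and 5.40, with all 4 arrays well above background. In TrbE14 it was 4.49, 5.45, 5.17 and 4.90, with 3 of 4 arrays well above background. The TrbE10 arrays thus lay above every control, and 3 of the 4 TrbE14 arrays did. Against the control mean of the lowest signals that were well above background, Fcgr1 was at least 2.2-fold higher in TrbE10. In TrbE14 it was 1.26-fold higher, which is no lower bound, as only 3 of 4 arrays were well above background. These folds hold for quantile normalization alone. The fitted log2 difference of 1.25 in TrbE10 became 0.44 with normexp and 0.77 with the authors' normalized values, and that of 0.45 in TrbE14 became 0.09 with normexp. Fcgr1 passed the filter through the mutant groups, where it is high. Its probe lies at chr3:96086839-96086898 (mm9, as all probe positions here).

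Fcgr4, an activating receptor for IgG2 subclasses, had the widest spread of the 10 genes in control and TrbE10 hearts, and Fcgr2b had it in TrbE14. Its log2 signal in controls was 4.47, 5.03, 6.04 and 5.01, in TrbE10 5.81, 6.17, 7.06 and 6.73, and in TrbE14 6.06, 5.36, 6.18 and 6.22. Control replicate 3 overlapped both mutant groups, and 3 of 4 arrays of each lay above it. The log2 difference was 1.31 ± 0.35 (SE) in TrbE10 (limma, adjusted p = 0.0934) and 0.82 ± 0.35 in TrbE14 (adjusted p = 0.345). With normexp these were 0.60 and 0.30. Without control replicate 3 the TrbE10 difference was 1.61 and passed the test (adjusted p = 0.0482, in a range of 0.0482 to 0.236 over the arrays left out).

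Fcgr3, a low affinity activating receptor, had log2 signals of 7.60, 7.47, 7.97 and 7.76 in control, 8.16, 8.07, 8.07 and 8.15 in TrbE10 and 8.06, 7.71, 7.82 and 7.80 in TrbE14 hearts. The TrbE10 values lay above all controls and all TrbE14 values, and those of TrbE14 overlapped the controls. The difference of 0.41 ± 0.11 in TrbE10 did not pass the adjusted test (limma, adjusted p = 0.101), nor did that of 0.14 ± 0.11 in TrbE14 (adjusted p = 0.583). The probe, at chr1:172984129-172984188, is shown because it lies in the extracellular part, where Fcgr3 and Fcgr2b are closely related in sequence, so a contribution of Fcgr2b RNA to its signal remains uncertain.
Fcgr3 probe: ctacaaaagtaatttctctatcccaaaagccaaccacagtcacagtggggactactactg

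Fcgr2b, the inhibitory receptor, passed the test in neither mutant. It had log2 signals of 7.12, 6.74, 7.03 and 7.03 in control, 6.45, 7.18, 7.13 and 7.28 in TrbE10 and 6.62, 6.22, 7.32 and 7.04 in TrbE14 hearts, and the 3 groups overlapped. The difference was 0.03 ± 0.24 in TrbE10 (95% interval -0.49 to 0.55; limma, adjusted p = 0.968) and -0.18 ± 0.24 in TrbE14 (-0.70 to 0.35; adjusted p = 0.758), so changes of that width in either direction remain possible. Its probe (chr1:172890988-172891047) was printed on 10 spots of each array, more than any other probe of the 10 genes, and the spots of an array differed by an SD of 0.084 to 0.232, with a median of 0.113. The SD between arrays of a group was 0.37, which holds the differences between mice as well. TrbE10 replicate 1 was the lowest of its group for Fcgr2b and for Fcgr4 but the highest for Fcgr3, Tyrobp and Vav1.

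The mean of the 3 activating receptors minus Fcgr2b, set to 0 in control, was 0.96 ± 0.31 (SD, n = 4) in TrbE10 and 0.65 ± 0.38 in TrbE14 on the log2 scale. Control arrays lay between -0.45 and 0.43, TrbE10 arrays between 0.67 and 1.36, and TrbE14 arrays between 0.25 and 1.13. The TrbE10 arrays did not overlap the controls, and TrbE14 replicate 3 lay within them. This balance holds Fcgr1, which was chosen for its TrbE10 values and which control arrays did not measure above background. Without Fcgr1 it was 0.83 ± 0.27 in TrbE10 and 0.66 ± 0.34 in TrbE14, and both overlapped the controls, with TrbE10 arrays from 0.50 and control arrays up to 0.53. With Fcgr1 and normexp it was 0.43 in TrbE10 and 0.24 in TrbE14.

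The genes of 3 of these receptors lie together with that of their signalling chain. The probes of Fcgr2b, Fcgr4, Fcgr3 and Fcer1g span 269 kb of chromosome 1 (chr1:172890988-173159853). Within this stretch the TrbE10 differences ran from 0.03 for Fcgr2b at one end, over 1.31 for Fcgr4 and 0.41 for Fcgr3, to 0.77 for Fcer1g at the other. Whether these neighbours differ from each other in size was not tested.

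Both ITAM adaptors rose in TrbE10 hearts. Fcer1g, the shared gamma chain (chr1:173159794-173159853), had log2 signals of 10.79, 10.77, 11.22 and 11.03 in control, 11.77, 11.45, 11.90 and 11.79 in TrbE10 and 11.44, 11.36, 11.65 and 11.25 in TrbE14 hearts. Both mutant groups lay above all controls. The difference was 0.77 ± 0.14 in TrbE10, 1.71-fold (limma, adjusted p = 0.0186), and 0.47 ± 0.14 in TrbE14, 1.39-fold, which did not pass (adjusted p = 0.18). The TrbE10 call was lost without control replicate 1 or without TrbE10 replicate 1, 3 or 4, at adjusted p up to 0.0669.

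Tyrobp, the DAP12 adaptor, had log2 signals of 10.59, 10.47, 10.94 and 10.57 in control, 11.44, 11.39, 11.31 and 11.30 in TrbE10 and 11.17, 11.05, 10.86 and 10.68 in TrbE14 hearts. The TrbE10 arrays lay above all others, and their SD of 0.07 was below that of the controls, 0.21. TrbE14 arrays overlapped the controls, with 2 of 4 above them. The difference was 0.72 ± 0.13 in TrbE10, 1.64-fold (limma, adjusted p = 0.0195), and 0.30 ± 0.13 in TrbE14 (adjusted p = 0.34). The TrbE10 call was lost without control replicate 1, 2 or 4 or TrbE10 replicate 1 or 3, at adjusted p up to 0.0658. The probe spans a splice junction, with its ends at chr7:31200651 and chr7:31202378, and is shown because it covers the first tyrosine of the ITAM, whose 4 codons are in capitals.
Tyrobp probe: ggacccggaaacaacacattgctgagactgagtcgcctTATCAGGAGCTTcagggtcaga

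Trem2, the DAP12 partner, had the largest difference of the 10 genes in TrbE10 and in TrbE14. Its log2 signal in control replicates 1 to 4 was 7.63, 7.34, 8.07 and 8.22. In TrbE10 it was 9.30, 9.27, 9.73 and 9.27, and in TrbE14 9.14, 9.12, 9.01 and 9.12. Each of the 8 mutant arrays lay above each control, and the TrbE14 arrays lay within 0.13 of each other, against 0.87 for the controls. The difference was 1.58 ± 0.18 in TrbE10, 2.98-fold (limma, adjusted p = 0.0016), and 1.28 ± 0.18 in TrbE14, 2.44-fold (adjusted p = 0.0081). Both passed with each array left out, at adjusted p up to 0.00754 and 0.0316. The TrbE14 arrays shared slide 1 with the controls, and in a fit of these groups alone the difference of 1.28 had an adjusted p of 0.032. They lay in different columns of that slide, so the column and the group cannot be told apart. The probe lies at chr17:48491537-48491596.

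The Trem2 difference was the larger beside that of its adaptor, a comparison that was not tested. Trem2 minus Tyrobp, set to 0 in control, was 0.86 ± 0.26 (SD, n = 4) in TrbE10 and 0.99 ± 0.20 in TrbE14 hearts, a log2 difference of differences. Control arrays ranged from -0.30 to 0.47, TrbE10 arrays from 0.69 to 1.25 and TrbE14 arrays from 0.80 to 1.27, with no overlap between mutants and controls.

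Vav1, Fyb and Laptm5 stand for the steps behind the receptors. Vav1, the exchange factor (chr17:57467307-57467366), was graded, with log2 signals of 7.33, 7.61, 7.60 and 7.64 in control, 8.54, 8.30, 8.54 and 8.33 in TrbE10 and 8.04, 7.98, 8.05 and 7.86 in TrbE14 hearts. The 3 groups did not overlap. The difference was 0.88 ± 0.10 in TrbE10 and 0.44 ± 0.10 in TrbE14. A second Vav1 probe (chr17:57451288-57454690) was well above background on 1 of 4 control arrays and is given no difference. As the gene was chosen for its TrbE10 values, its differences are descriptions.

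Fyb, the scaffold that links receptors to integrins (chr15:6602484-6602543), was highest on the TrbE10 arrays, which overlapped neither other group. Its log2 signals were 5.38, 5.42, 5.22 and 5.04 in control, 6.08, 6.12, 6.15 and 6.10 in TrbE10 and 5.42, 5.19, 5.02 and 5.53 in TrbE14 hearts. TrbE14 values lay on both sides of the controls. The difference was 0.84 ± 0.12 in TrbE10, a description as the gene was chosen on it, and 0.02 ± 0.12 in TrbE14. Fyb is dim, with 3 of 4 control arrays well above background, and its TrbE10 difference was 0.32 with normexp. A second Fyb probe was not well above background on any array and is given no value.

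Laptm5, the lysosomal membrane protein (chr4:130490785-130490844), had log2 signals of 7.17, 7.67, 7.91 and 7.56 in control, 8.16, 8.06, 8.59 and 8.55 in TrbE10 and 7.93, 7.88, 8.23 and 8.01 in TrbE14 hearts. The TrbE10 arrays lay above all controls, whereas control replicate 3 lay within the TrbE14 range. The difference of 0.76 ± 0.17 in TrbE10 missed the threshold (limma, adjusted p = 0.0511), and that of 0.43 ± 0.17 in TrbE14 did not pass (adjusted p = 0.306). In TrbE10 the adjusted p ranged from 0.0276 to 0.141 over all alternatives, and 7 of the 9 that kept all arrays passed. A second Laptm5 probe had differences of 0.53 and 0.23.

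**Figure D2:**
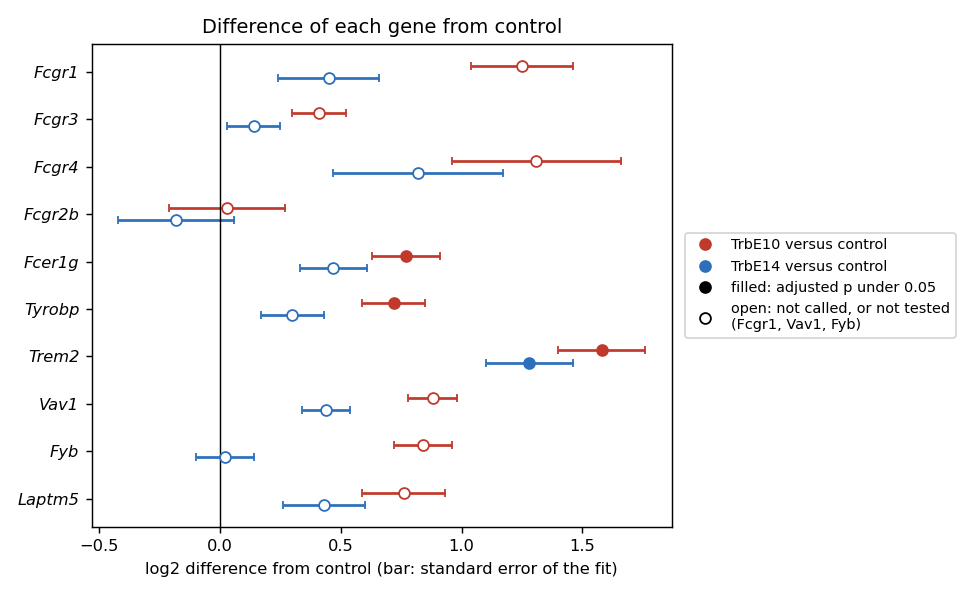
Log2 difference from control (horizontal axis) of each gene in TrbE10 and TrbE14 hearts, with the standard error of the limma fit; filled points passed an adjusted p under 0.05, and Fcgr1, Vav1 and Fyb were not tested. Trem2 stands farthest to the right in both mutants (1.58 and 1.28), Fcgr2b lies around 0 in both, and Fyb lies at 0.84 in TrbE10 and 0.02 in TrbE14.

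Between the mutants, none of the 7 tested genes passed the adjusted test (limma, adjusted p from 0.651 for Tyrobp to 0.964 for Fcgr2b), and 0% of all genes on the array were called higher at this threshold. At an unadjusted p under 0.05 there were 3 of the 7, Fcgr3, Fcer1g and Tyrobp, and 1074 of all 18021 genes. All 10 genes had a higher mean in TrbE10 than in TrbE14, by 0.21 to 0.82 with a median of 0.37, and the median of the 7 tested genes was 0.30, beside 0 over all genes. The arrays of the groups did not overlap for 3 of the 7 tested genes (Fcgr3, Tyrobp and Trem2), where 1.63% of all genes lay wholly higher in TrbE10. They did not overlap for Vav1 and Fyb either, which were chosen for their TrbE10 values. The mutants lay on different slides, so that slide and mutant cannot be told apart here. The difference was 0.42 ± 0.13 for Tyrobp, with a 95% interval of 0.14 to 0.69, and 0.29 ± 0.18 for Trem2, with an interval of -0.10 to 0.69. Fyb and Fcgr1, both chosen for their TrbE10 values, had the largest differences between the mutants, 0.82 and 0.80. The mutants thus were not shown to differ in any tested gene.

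Markers of the cells that carry these proteins moved in the same hearts. All 12 macrophage markers passed the filter, and 11 of them passed that over 9 of the 12 arrays. Their mean log2 signal was 8.91 to 9.02 in control, 9.41 to 9.56 in TrbE10 and 9.34 to 9.46 in TrbE14 hearts, with no overlap between either mutant and control. Cd163 was dim, with a mean of 4.09 in control hearts, so its part in these means is uncertain. In TrbE10, 4 of the 12 rose (limma, adjusted p under 0.05): Csf1r, the receptor for the growth factor of macrophages, by 1.14, Aif1 by 0.96, C1qa by 0.72 and Cd68 by 0.60 on the log2 scale. In TrbE14, Csf1r alone of the 12 rose, by 0.92. Over all genes 1.26% were called higher in TrbE10 and 0.538% in TrbE14. The median difference of the list was 0.58 and 0.42, and 10 and 11 of 12 were above 0. Itgam had differences of -0.09 and 0.05 and Lyve1 of -0.18 and 0.03, which did not pass. The Itgam probe was bright, with a control mean of 12.80 beside 12.24 for Csf1r, and whether it measures Itgam alone was not tested. The TrbE10 count was 1 of 12 in a fit of these groups alone and without control replicate 1, 2 or 4 or TrbE10 replicate 1 or 3, and 2 without TrbE10 replicate 4. Their part in the differences of the Fc receptors and adaptors was not tested.

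Other cell types were followed by their own markers. Of 7 pan-leukocyte markers, 2 rose in TrbE10 (Coro1a by 0.73 and Itgb2 by 0.36) and none in TrbE14, beside 1.26% and 0.538% of all genes. Their mean levels overlapped the controls in TrbE14 (7.28 to 7.52 in control, 7.64 to 7.99 in TrbE10, 7.36 to 7.69 in TrbE14). Of the T cell, NK cell, B cell and neutrophil markers that passed the filter, 5, 4, 3 and 4, none was called in either mutant, and their mean levels overlapped the controls in both, with ranges in control of 5.00 to 5.86, 6.28 to 6.85, 5.29 to 5.86 and 7.36 to 9.33, except that TrbE14 values of the NK cell markers lay below the controls. At an unadjusted p under 0.05 these lists had 1, 0, 1 and 1 genes in TrbE10 and 1, 1, 1 and 0 in TrbE14. Of all 18021 genes, 3007 and 2491 had such a p. The defining T cell marker Cd3e passed the filter, and Cd8a, Eomes, Ms4a1 and Mpo, of T cells, NK cells, B cells and neutrophils, did not. Of 5 mast cell markers, 1 was called higher in each mutant, Cpa3, beside 1.26% and 0.538% of all genes. As Cpa3 passed the filter through the mutant groups, where it is high, this call is only a description and no p is given for it. Cpa3 was not well above background on any control array, and the same kind of bound as for Fcgr1 gives at least 1.68-fold more signal for TrbE14. For TrbE10 the value was 2.05-fold, which is no lower bound, as only 3 of 4 arrays were well above background. The mean of the list was 4.84 to 5.34 in control, 5.57 to 7.59 in TrbE10 and 5.94 to 6.88 in TrbE14. It holds Cpa3 at a control mean of 2.86, below its bound of 4.44, so the control range and its distance from the mutants are uncertain. Mast cells also use Fcer1g, and the alpha and beta chains of their IgE receptor, Fcer1a and Ms4a2, did not pass the filter. None of the 6 cardiomyocyte markers was called.

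Set against the macrophage markers of the same array, the 10 genes fell into different patterns. The mean of the 10 minus the mean of the 12 markers, set to 0 in control, was 0.30 ± 0.09 (SD, n = 4) in TrbE10 and -0.02 ± 0.09 in TrbE14, with control arrays from -0.23 to 0.24 and TrbE10 arrays from 0.19 to 0.41, which overlapped. With normexp the TrbE10 value was 0.11. Trem2 exceeded the markers in both mutants, by 1.02 and 0.84, with no mutant array as low as the highest control (0.44). Fcgr2b lay below them, by -0.53 in TrbE10 and -0.62 in TrbE14, and its TrbE10 arrays, at most -0.26, lay under the lowest control (-0.20), whereas TrbE14 arrays, up to -0.10, overlapped the controls. Fcgr1 had means of 0.70 and 0.01, Fcgr4 of 0.75 and 0.38, and Fcgr3 of -0.15 and -0.30, and all of these overlapped the controls. Fyb, dim and chosen for its TrbE10 values, lay above the markers in TrbE10 (0.29 ± 0.08) and below in TrbE14 (-0.42 ± 0.24). Its TrbE10 arrays, from 0.23, lay above its highest control (0.20). Its TrbE14 arrays, up to -0.12, overlapped the controls, whose lowest was -0.19. The group means of Fcer1g, Tyrobp, Vav1 and Laptm5 lay between 0.16 and 0.33 in TrbE10 and between -0.14 and 0.03 in TrbE14. Vav1, chosen for its TrbE10 values, had TrbE10 arrays from 0.18, above its highest control (0.14), and the TrbE10 arrays of Fcer1g, Tyrobp and Laptm5 overlapped the controls.

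**Figure D3:**
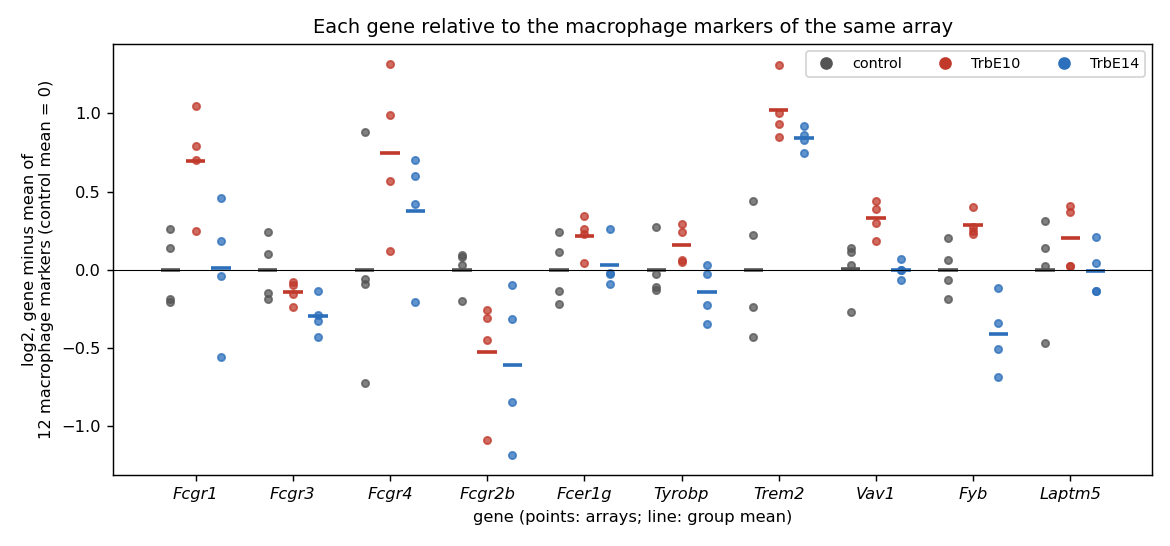
Log2 signal of each gene minus the mean of 12 macrophage markers on the same array (vertical axis; the mean of the controls is 0), for the 10 genes (horizontal axis); points are arrays, lines group means. Trem2 lies above 0 on all mutant arrays, and Fcgr2b lies below 0 on all of them. Fyb, chosen for its TrbE10 values, has means of 0.29 in TrbE10 and -0.42 in TrbE14.

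Further genes of the receptors' pathway were followed on 5 lists holding 66 genes, of which 47 passed the filter. In TrbE10, 7 of the 47 rose and none fell (limma, adjusted p under 0.05), where 1.26% of all genes were called higher. In TrbE14, 3 rose and none fell, where 0.538% of all genes were called higher. Both counts hold Sirpb1a, which passed the filter through the mutant groups, where it is high. The median difference was 0.41 and 0.17, and 37 of 47 were above 0 in each mutant, beside 45.4% and 44.3% of all genes. Of 7 measured receptors and adaptors of the same kind, Sirpb1a, a receptor that pairs with DAP12, rose by 1.89 in TrbE10 and 1.60 in TrbE14, with 1 of 4 control arrays well above background, so that the control level and these sizes are uncertain. Hcst, which encodes the adaptor DAP10, rose by 0.78 in TrbE10 and had a difference of 0.47 in TrbE14 (limma, adjusted p = 0.0647). Trem1 had differences of 0.21 and 0.14, which did not pass. Sirpb1a belongs to a family of similar genes, and related RNA may add to its signal.

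Of 9 kinases measured, none was called in TrbE10 and 1 in TrbE14, Prkcd, a protein kinase C, which rose by 0.55. Syk, listed under its older name Sykb, had differences of -0.02 ± 0.11 and 0.07 ± 0.11, which did not pass. Of 14 scaffolds and effectors, Ncf1 and Cybb, subunits of the phagocyte oxidase, rose in TrbE10 by 0.97 and 1.14, and none rose in TrbE14. Skap2, a Fyb partner, had differences of 0.48 and 0.23, and Was, an actin regulator, of 0.56 and 0.35, which did not pass. Vav3, a relative of Vav1, had differences of -0.03 and -0.18. Of 12 inhibitory receptors and phosphatases, Cd72 (1.92), Lair1 (1.12) and Dok1 (0.88) rose in TrbE10 and Lair1 (1.12) in TrbE14, and all 12 had a difference above 0 in both. Inpp5d and Ptpn6, the phosphatases SHIP-1 and SHP-1 that inhibitory receptors recruit, had differences of 0.33 and 0.54 in TrbE10 that did not pass. Of 5 other Fc receptors measured, none was called. Fcgrt, the neonatal Fc receptor, which is not a signalling receptor of this kind, had differences of -0.19 and -0.09. The TrbE10 count ranged from 4 without control replicate 1, control replicate 4, TrbE10 replicate 1 or TrbE10 replicate 3 to 10 without TrbE10 replicate 2, and was 13 with the authors' normalized values. The TrbE14 count of 3 was at most 2 without any 1 array, and 0 with the replicate block, with sex as a covariate or in fits of the pairs of groups alone. With the authors' normalized values the TrbE14 count was 4.

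**Figure D4:**
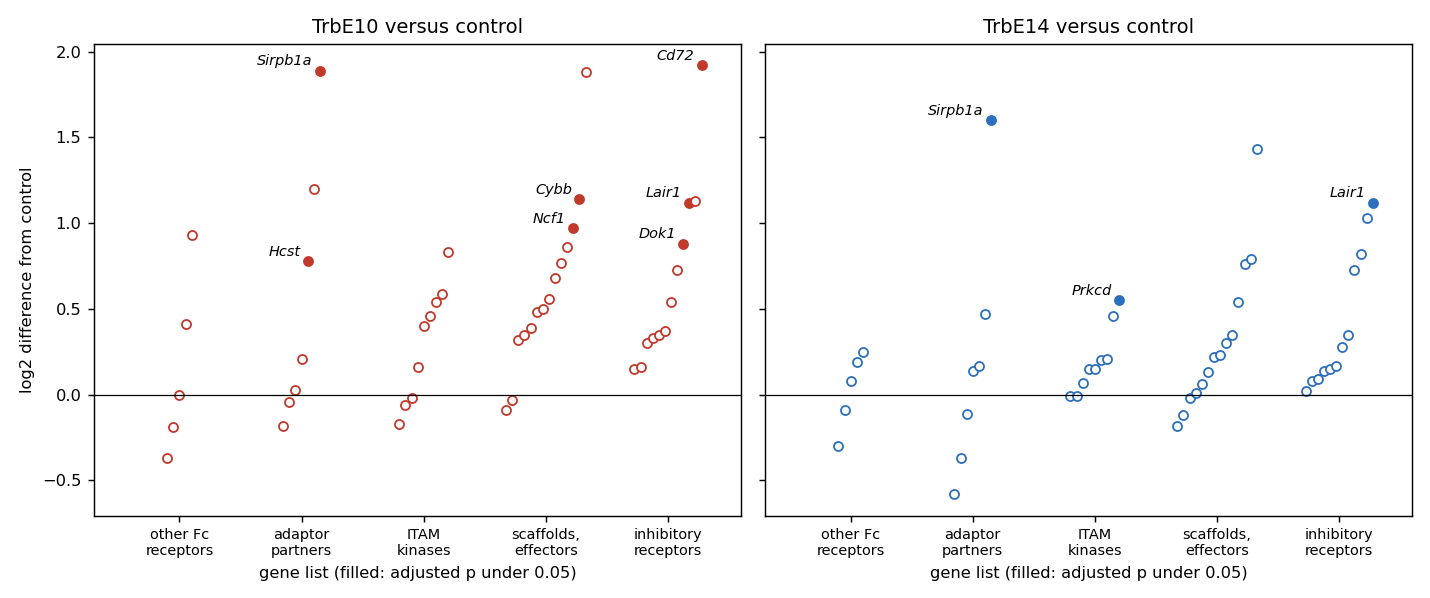
Log2 difference from control (vertical axis) of the 47 measured pathway genes by list (horizontal axis), TrbE10 on the left and TrbE14 on the right; each point is a gene and filled points passed an adjusted p under 0.05. In TrbE10 the filled points are Sirpb1a, Hcst, Ncf1, Cybb, Cd72, Lair1 and Dok1, and in TrbE14 Sirpb1a, Prkcd and Lair1.

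Promoters were searched for motifs of factors known from myeloid cells. PU.1, a transcription factor of myeloid cells encoded by Spi1, binds DNA with the core GAGGAAG. The RefSeq table of the GRCm38.p6 build, which is another build than that of the probes, held promoters for 9 of the 10 genes, 10 entries in all as Fcgr3 has a pair, and none was read for Tyrobp. In the 250 bases before the transcription start, GAGGAAG or its reverse complement CTTCCTC occurred in 6 of these 9 genes (Fcgr1, Fcgr3, Fcgr4, Laptm5, Trem2 and Vav1), and in 10.6% of all 32851 promoters. Each match in the 6 genes began between 7 and 56 bases before the start, positions that are given as a description. Fcer1g, Fcgr2b and Fyb held none, which says only that these letters are not in this window. The RUNX motif TGTGGTT, searched on both strands as well, was in none of the 10 entries and in 4.4% of all promoters. The promoters of the 3 receptors with the largest TrbE10 differences, of Vav1, and of Fcgr2b, which had the smallest, are shown on the strand of the gene, with the PU.1 motif in capitals.
Trem2 (chr17:48346151-48346400, + strand): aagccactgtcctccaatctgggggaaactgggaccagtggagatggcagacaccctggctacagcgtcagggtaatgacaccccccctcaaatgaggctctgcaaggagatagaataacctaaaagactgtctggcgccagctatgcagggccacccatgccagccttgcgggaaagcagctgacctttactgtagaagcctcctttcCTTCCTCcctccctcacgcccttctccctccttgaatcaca
Fcgr4 (chr1:171018676-171018925, + strand): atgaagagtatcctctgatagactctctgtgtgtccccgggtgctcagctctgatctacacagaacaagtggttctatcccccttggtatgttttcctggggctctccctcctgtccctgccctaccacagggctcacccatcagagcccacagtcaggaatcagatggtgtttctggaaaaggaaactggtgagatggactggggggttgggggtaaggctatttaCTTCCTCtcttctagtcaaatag
Fcgr1 (chr3:96293970-96294219, - strand): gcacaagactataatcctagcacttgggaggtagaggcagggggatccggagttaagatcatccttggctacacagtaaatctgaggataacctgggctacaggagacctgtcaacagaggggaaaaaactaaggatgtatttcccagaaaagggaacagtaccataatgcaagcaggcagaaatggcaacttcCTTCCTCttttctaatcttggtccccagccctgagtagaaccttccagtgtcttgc
Vav1 (chr17:57278850-57279099, + strand): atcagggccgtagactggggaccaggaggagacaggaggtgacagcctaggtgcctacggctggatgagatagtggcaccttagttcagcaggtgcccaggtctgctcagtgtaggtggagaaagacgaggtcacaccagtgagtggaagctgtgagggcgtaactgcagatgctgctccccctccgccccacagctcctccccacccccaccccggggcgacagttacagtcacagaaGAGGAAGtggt
Fcgr2b (chr1:170976072-170976321, - strand): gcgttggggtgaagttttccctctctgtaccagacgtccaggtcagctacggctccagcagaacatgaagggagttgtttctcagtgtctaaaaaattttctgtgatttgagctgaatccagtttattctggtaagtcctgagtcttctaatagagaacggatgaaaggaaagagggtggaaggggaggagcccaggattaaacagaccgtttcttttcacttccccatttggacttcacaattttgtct

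The motif stood in CTTCCTC orientation in Trem2, Fcgr4 and Fcgr1, at 41, 23 and 56 bases before the start, and in GAGGAAG orientation in Vav1, at 11 bases. The genes with a match had TrbE10 differences from 0.41 (Fcgr3) to 1.58 (Trem2), and those without from 0.03 (Fcgr2b) to 0.84 (Fyb), so the ranges overlapped. Spi1 itself, listed as Sfpi1, was dim, with a mean of 4.95 in control, 5.10 in TrbE10 and 5.19 in TrbE14 hearts, and its differences of 0.15 and 0.24 did not pass (limma, adjusted p = 0.717 and 0.552).

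Within the groups the 10 genes varied together only in part. With group means removed, the correlation over the 12 arrays, which share normalization, had a median of 0.15 over 45 pairs of genes and ranged from -0.59 (Fcer1g and Fyb) to 0.87 (Fcgr4 and Laptm5), and it is given as a description. Fcgr4, Laptm5 and Fcer1g followed the mean of the other 9 genes most closely, at 0.84, 0.77 and 0.72, whereas Fyb (-0.37) and Fcgr1 (-0.14) did not follow it. Control replicate 3 had the highest signal of its group for Fcgr1, Fcgr3, Fcgr4, Fcer1g, Tyrobp and Laptm5.

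The genes most like the mean standardized profile of the 10 over the 12 arrays, by Pearson's r, were P2ry6, a receptor for uridine nucleotides (0.96), Hcst (0.954), Ctss, the lysosomal protease cathepsin S (0.951), Gp49a (0.93), which has a near-identical relative in Lilrb4 so that their signals may be shared, and C1qc, a chain of complement C1q (0.926). With group means removed these values were 0.74, 0.69, 0.74, 0.55 and 0.66, so part of the likeness came from the group differences. Their differences from control were 0.78 to 1.11 in TrbE10 hearts and 0.41 to 0.65 in TrbE14 hearts on the log2 scale.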

How the data were processed

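Left ventricular RNA of 12 mice was labelled with Cy3 and hybridised to one-colour Agilent SurePrint G3 Mouse 8x60K arrays. Per the submitters' processing notes the authors used Agilent Feature Extraction 10.5, and the deposited scanner files hold intensity values, of which the processed signal is background-subtracted within the array and not scaled between arrays. A matrix deposited by the authors holds quantile-normalized log2 signals that they had filtered on background, with 22114 rows and column medians of 8.58 to 8.60, whose values correlate with the normalized signals used here at 0.9976.

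The 3671 control spots of 62976 were removed, quantile normalization was applied to log2 processed signals, spots marked as outliers were set to missing (93 to 131 an array), and replicate spots were averaged. Probes were kept where 3 or more arrays of a group had them well above background (24593 of 55681), and 7 of them had a missing value. The brightest kept probe stood for a gene. Group means were fitted to all 12 arrays by a linear model in limma 3.58.1 in R 4.3.3 (data.table version 1.17.8), with 9 residual and 2.2 prior degrees of freedom, in place of the study's SAM, and p-values were adjusted by Benjamini-Hochberg over all kept probes at a threshold of 0.05. Every adjusted p comes from limma. The method was tested on simulated data. SE is that of the fit, and ± SD that of arrays. Figures used Python 3.11.15 and matplotlib 3.10.9.

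The genes, lists and alternatives were chosen with earlier results of these data known. Genes named from the lists were those called in either mutant and defining markers not above background, and the 5 genes most like the members were named by Pearson's r. Itgam, Lyve1, Cd3e, Trem1, Syk, Skap2, Was, Vav3, Inpp5d, Ptpn6, Fcgrt and Spi1 were named after their values had been seen. Labels number the replicates, and 1 mouse per array follows the group sizes in the study's methods. The precision is limited by the number of mice. Only signal levels of the same probe were compared. Alternatives were another scaling, normexp (offset 50) as background correction, a background filter over 9 of the 12 arrays or none, values as normalized by the authors, fits of 2 groups, the replicate number as a block, sex from Y-linked signal, the mean of a gene's probes, and each array left out.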

Additional observations from a re-analysis of the deposited data

Results flagged for a closer look

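In 30 sets of 4 arrays (10 genes in 3 groups), 2 held an array whose gap to its nearest neighbour exceeded, as a share of the range of the set, the critical value of Dixon's test. About 1 in 20 such sets is expected to do so by chance. Trem2 in TrbE10 replicate 3 was 9.73, with the next array at 9.30 and the lowest at 9.27. Vav1 in control replicate 1 was 7.33, with the next array at 7.60 and the highest at 7.64. Without the first, Trem2 still passed in TrbE10 (limma), and without the second the Vav1 difference in TrbE10 was 0.81 in place of 0.88.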

How the results depend on the processing

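The median of the 10 genes stayed above 0 in all 3 comparisons and under every alternative. It moved most with normexp, to 0.61 in TrbE10 and 0.27 in TrbE14, and lay between 0.77 and 0.87 and between 0.33 and 0.50 with each array left out. With control Fcgr1 raised to the lowest signals that were well above background, the median was 0.81 and 0.38. The count of tested genes called higher in TrbE10 was 3 and rose to 5 with the replicate block, which added Fcgr4 (adjusted p = 0.045) and Laptm5 (adjusted p = 0.0303), and it ranged from 1 to 5 with each array left out. The TrbE14 count of 1 and the count of 0 between the mutants held under all alternatives. The labels do not say that replicate numbers pair mice, and deviations of same-numbered arrays correlated between -0.24 and 0.08 for control with either mutant and between -0.01 and 0.48 for TrbE10 with TrbE14, so the numbers were not taken as pairs.

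Of the pathway genes, 7 were called in TrbE10 as reported, 4 without a filter, 13 with the authors' values and 12 with the mean of a gene's probes, and 4 to 10 with each array left out. In TrbE14 the count of 3 was 1 without a filter, 4 with the authors' values and 4 with the mean of a gene's probes. It was 0 in fits of 2 groups, 0 with the replicate block, 0 with sex as a covariate, and 0 to 2 with each array left out. Macrophage markers called in TrbE10, 4 in all, were 1 without a filter, 1 in fits of 2 groups and 1 to 4 with each array left out, and the TrbE14 count of 1 was 2 with sex as a covariate. The causes were not tested. Over all genes, 227 were called higher in TrbE10, 127 without a filter and 107 to 358 with each array left out, and 97 in TrbE14, with 57 to 122. Scaling to the 75th percentile moved the share of higher calls in TrbE10 from 66.0% to 55.2%. In TrbE14 that share went from 80.8% to 67.8% with normexp. Low signals limit Fcgr1, Fcgr4 and Fyb, where normexp lowers every difference from control in TrbE10. The balances within arrays were added after seeing the data.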
